A study of Homo sapiens with 15 samples.

Results

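The genes described here are the 6 subunits of the MCM2 to MCM7 helicase (MCM2, MCM3, MCM4, MCM5, MCM6 and MCM7) and 4 factors that act with it at replication origins, namely CDC6, CDT1, GMNN and DBF4. They were taken by symbol from an expression table of 17272 genes in LNCaP cells, and all 10 had a row and passed the filter on low values. The LNCaP line was derived from a human prostate cancer and responds to androgens. In all 15 libraries the cells had been kept for 2 days in medium with charcoal-stripped serum, which is poor in androgens, and then received 1 nM R1881, a synthetic androgen. In 10 libraries R1881 was given with the vehicle DMSO, and in 5 libraries it was given with 2 µM enzalutamide, a drug that blocks the androgen receptor. Cells were collected after 22 h, so each comparison asks how blocking the receptor changed expression in androgen-stimulated cells, and no library without R1881 was analysed here. All libraries come from a single cell line. The labels number the libraries of a treatment as replicates without saying whether they were separate cultures, and the study's methods call them biological replicates, so p-values measure the spread between these libraries. Those methods give the group sizes the other way round, and the labels, which name the treatment of each library, were followed here.

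Origin licensing is the step before S phase in which the replicative helicase is loaded onto DNA. The origin recognition complex marks an origin, CDC6 and CDT1 bring the ring of MCM2 to MCM7 onto it, and geminin, the product of GMNN, binds CDT1 and stops further loading once replication has begun. The kinase made of CDC7 and its regulatory subunit DBF4 then phosphorylates the loaded MCM ring, which is a step towards origin firing. Many of these genes are known targets of the E2F transcription factors and are transcribed around the transition from G1 to S phase.

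The promoters of these genes were searched for the letters of E2F sites. RefSeq promoter windows (GRCh38.p14, 250 bases before to 50 after a start) were found for 8 of the 10 genes, and MCM4 and MCM5 had no entry. The letters TTTCCCGC, TTTCGCGC, TTTGCCGC or TTTGGCGC, on either strand, were present in 7 of these 8 genes (CDC6, CDT1, GMNN, MCM2, MCM3, MCM6 and MCM7) and not in DBF4. They were present in 3.99% of all 27305 genes with a window, and in 6.66% of the 9856 tested genes with one. The stretches below are 30 bases long, are written 5′ to 3′ on the strand of the gene, and have the matching letters in capitals. Where neighbouring matches overlap, as in MCM2 and MCM6, the capitals mark their union.
MCM2, chr3:127598404-127598433, plus strand: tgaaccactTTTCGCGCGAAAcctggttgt
MCM3, chr6:52284898-52284927, minus strand: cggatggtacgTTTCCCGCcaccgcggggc
MCM3, chr6:52284728-52284757, minus strand: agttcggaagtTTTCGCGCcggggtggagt
MCM6, chr2:135876575-135876604, minus strand: ggctttgcaTTTGGCGCGAAAtccctttcc
MCM6, chr2:135876513-135876542, minus strand: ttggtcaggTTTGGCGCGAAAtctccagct
MCM7, chr7:100101566-100101595, minus strand: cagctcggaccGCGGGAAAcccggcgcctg
MCM7, chr7:100101388-100101417, minus strand: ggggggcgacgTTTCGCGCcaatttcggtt
CDC6, chr17:40287875-40287904, plus strand: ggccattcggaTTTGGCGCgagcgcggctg
CDT1, chr16:88803743-88803772, plus strand: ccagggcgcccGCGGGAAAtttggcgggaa
GMNN, chr6:24775322-24775351, plus strand: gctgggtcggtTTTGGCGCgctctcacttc

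Only bases near a start were searched, so the matches could lie nowhere else. Counted from the start base, they began at -187 and -9 in MCM7, -174 and -4 in MCM3, and -152 and -90 in MCM6. The match began at -80 in GMNN and -35 in CDT1, and just after the start at positions 8 in CDC6 and 3 in MCM2. The complete 15-base androgen response element (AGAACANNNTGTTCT) was in none of the 8 genes and in 1 of the 27305. The shorter letters AGAACA, with which this element begins, were found in GMNN alone, against 17.54% of all genes with a window. The cell cycle homology letters (TTTGAA or TTCGAA, either strand) were in DBF4 and MCM6, against 19.54%, and CCAAT was in 5 of the 8 genes, against 39.72%. Among tested genes with a window the E2F letters were in 7.89% of those called lower with enzalutamide and in 5.48% of those called higher. A match in letters is a description of sequence and does not show binding.

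Expression was given by the authors in CPM (reads counted on a gene, scaled by library size), and reads recovered from these values numbered 15830745 to 25416052 per library. Every value came out as a whole number of reads within 0.01. Genes were tested with limma on log2(CPM + 0.5) over 17046 genes with a mean of at least 0.5 CPM, with adjusted p under 0.05 as the threshold, and fold changes are on that log2 scale. Under this rule 62.5% of the genes differed between treatments, 32.7% being lower and 29.8% higher with enzalutamide, so that passing the test alone sets no gene apart. With the values scaled to plain library totals that split became 4288 lower and 6629 higher, in place of 5577 and 5083. KLK3, the gene for prostate-specific antigen and a classical androgen target, fell in the limma test (adjusted p = 1.12e-19), from a mean of 1588 CPM (SD 209, n = 10) in R1881 libraries to 134 CPM (SD 7.66, n = 5), with a median 91.4% lower. The 7 luminal prostate and LNCaP markers examined all had values, and their sum was 5279 to 6392 CPM with R1881 and 3369 to 3461 CPM with enzalutamide. None of the 6 immune markers and 1 of the 5 endothelial markers had a row. Of 6 fibroblast markers, COL1A1, COL3A1 and LUM had a row, and their sum was 6.36 to 10.5 CPM with R1881 and 21.2 to 26.7 CPM with enzalutamide. The basal marker KRT14 was at most 1.44 CPM in any library, with KRT5 and TP63 having no row. The part of these markers in the results below was not tested.

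Library numbers in the labels ran from 51 to 55 and from 71 to 75 for R1881 and from 81 to 85 for enzalutamide. The sources used here do not say what these numbers stand for. No such series held both treatments, so series and treatment cannot be told apart beyond the comparison of the R1881 series with each other. Libraries also differed in how expression followed the GC content of transcripts, with a rank correlation between a library's deviations and GC content across 11358 genes from -0.72 (library 52) to 0.79 (library 73) with R1881 and from -0.61 (library 85) to 0.80 (library 83) with enzalutamide. Correlations of this kind are across genes, which are not independent replicates.

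All 10 genes fell with enzalutamide in the limma test, where 32.7% of all genes did, and the median log2 fold change was -0.83, beside -0.01 over all genes tested. In 9 of the 10 every enzalutamide library lay below every R1881 library, which 20.1% of all genes also showed. CDC6, MCM5 and MCM4 were at least 2-fold lower, as were 4.19% of all genes. MCM4 and DBF4 lay close to this limit. MCM4 (-1.03) did not reach it with plain library totals (-0.94) or with libraries 71-75 alone (-0.95), and DBF4 (-0.99) passed it with edgeR and DESeq2 (-1.02 in both), with pseudocount 0.1 (-1.01), with libraries 51-55 alone (-1.09) and without some single libraries (as low as -1.02). In bulk RNA, fewer cells in the phases that express these genes and less of the transcript per cell cannot be told apart.

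**Figure D1:**
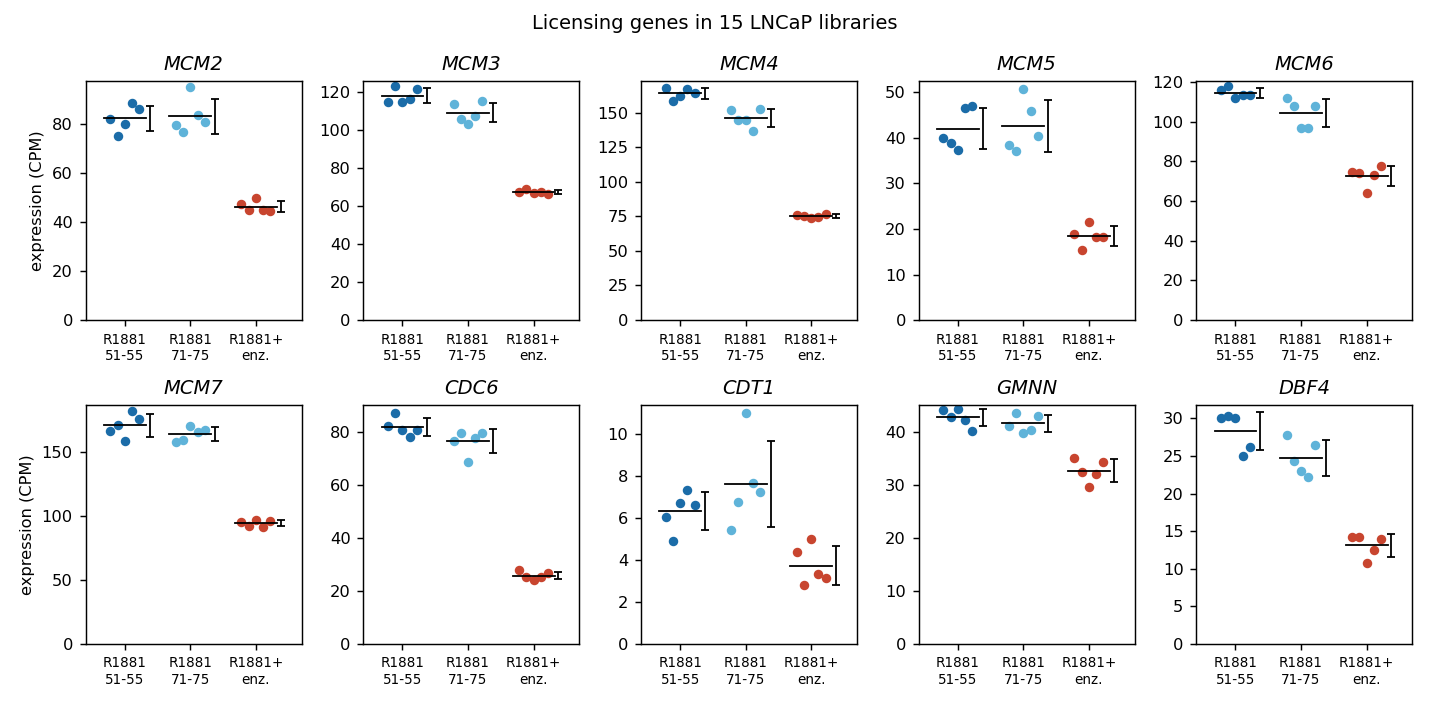
Expression in CPM (linear axis from 0) of the 10 genes in 15 LNCaP libraries, with R1881 libraries 51-55 in dark blue, R1881 libraries 71-75 in light blue and R1881 + enzalutamide in red. Points are libraries, horizontal lines are means and bars are SD (n = 5 per series), and CDT1 is the only gene in which a red point (4.98 CPM) lies above a blue point (4.90 CPM).

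Among the helicase subunits, MCM7 had the highest CPM. It lies at chr7:100092233-100101940 on the minus strand (GRCh38, GENCODE v44, here and below), and its main transcript has 15 exons. With R1881 the lowest library had 158 CPM, the median 167 CPM and the highest 182 CPM. With enzalutamide libraries 81 to 85 had 95.02, 91.7, 96.7, 91.5 and 96.2 CPM. All 5 values were far below the lowest R1881 value, and the log2 fold change was -0.82 ± 0.036 (SE; limma adjusted p = 2.23e-14). The gene holds the microRNA genes MIR25, MIR93 and MIR106B on its own strand and overlaps AP4M1 on the other strand. The library kit keeps the strand, but the sources used here do not give the strand setting of the counting.

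MCM4 (chr8:47960185-47978160, plus strand, 17 exons) was the next most abundant subunit. Its lowest, median and highest R1881 libraries had 137, 156 and 168 CPM, against 76.0, 75.5, 73.8, 74.3 and 77.1 CPM in enzalutamide libraries 81 to 85. The enzalutamide values were close together, with a spread 0.72 times that of counting alone, and the groups stood well apart. The log2 fold change was -1.03 ± 0.045 (SE; limma adjusted p = 2.24e-14), and the median was 51.5% lower.

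MCM3 (chr6:52264014-52284881, minus strand, 17 exons) ranged from 103 to 123 CPM with R1881, with a median of 115 CPM. Enzalutamide libraries 81 to 85 had 67.2, 68.7, 66.8, 67.4 and 66.6 CPM, the narrowest relative spread of the 10 genes in that group, with a mean of 67.4 ± 0.848 CPM (SD, n = 5). That spread was 0.49 times that of counting alone, so it is narrower than the reads can resolve. The groups did not overlap and the log2 fold change was -0.75 ± 0.039 (SE; limma adjusted p = 6.46e-13).

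MCM6 (chr2:135839626-135876443, minus strand, 17 exons) stood close to MCM3 with R1881, at 96.5 CPM in the lowest library, 112 CPM at the median and 118 CPM in the highest. With enzalutamide it had 74.8, 73.9, 63.9, 72.8 and 77.7 CPM in libraries 81 to 85, library 83 being the low one. The median was 33.9% lower, the smallest decrease among the 6 subunits, with a log2 fold change of -0.59 ± 0.052 (SE; limma adjusted p = 3.13e-09).

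MCM2 (chr3:127598410-127622436, plus strand, 16 exons) had 75.2 CPM in its lowest, 81.3 CPM in its median and 94.9 CPM in its highest R1881 library. In enzalutamide libraries 81 to 85 it had 47.2, 44.7, 49.9, 44.97 and 44.3 CPM. The highest value of each group came from library 73 and library 83, the libraries with the strongest positive relation to GC content, and the groups were nevertheless 25.3 CPM apart. The log2 fold change was -0.83 ± 0.049 (SE; limma adjusted p = 4.08e-12). Of the 50-base words of its transcript, 28.7% also occur in an annotated gene on the other strand (ENSG00000285600), so its reads may not all be its own if strand was not used.

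MCM5 (chr22:35400134-35425431, plus strand, 17 exons) was the least abundant subunit. R1881 libraries ranged from 37.2 to 50.7 CPM with a median of 40.3 CPM, and enzalutamide libraries 81 to 85 had 18.9, 15.3, 21.5, 18.3 and 18.2 CPM. Both the R1881 and the enzalutamide maximum again fell in libraries 73 and 83. No library of one treatment reached the other, and the log2 fold change of -1.18 ± 0.079 (SE; limma adjusted p = 4.04e-11) was the lowest of the 6 subunits.

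The helicase loader CDC6 (chr17:40287879-40304657, plus strand, 12 exons) showed the largest decrease of the 10 genes. Its R1881 libraries had 69.0 CPM at the lowest, 79.8 CPM at the median and 87.3 CPM at the highest. Enzalutamide libraries 81 to 85 had 27.8, 25.1, 24.05, 25.3 and 26.7 CPM, so the median was 68.3% lower. The log2 fold change was -1.60 ± 0.047 (SE; limma adjusted p = 2.69e-17), and 1.79% of the genes tested had a lower one.

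CDT1 (chr16:88803789-88809258, plus strand, 10 exons), the second loading factor, had the fewest reads of the group, 60 to 244 per library. R1881 libraries ranged from 4.90 CPM in library 52 to 10.98 CPM in library 73, with a median of 6.74 CPM. Enzalutamide libraries 81 to 85 had 4.37, 2.79, 4.98, 3.33 and 3.14 CPM. Library 83 with enzalutamide exceeded library 52 with R1881, so the groups overlapped, and the log2 fold change of -0.82 ± 0.142 (SE; limma adjusted p = 4.11e-05) had the largest SE of the 10 genes. The spread of CDT1 within a series was 1.65 to 3.32 times that of counting alone, and the SE was 0.080 with the GC trend removed. With a GC content of 64.3%, CDT1 had its highest value of each treatment in the libraries most related to GC content.

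GMNN, the gene for the CDT1 inhibitor geminin (chr6:24774931-24786099, plus strand, 7 exons), fell least. Its R1881 libraries lay between 40.0 and 44.4 CPM with a median of 42.6 CPM, and enzalutamide libraries 81 to 85 had 35.2, 32.6, 29.7, 32.2 and 34.3 CPM. The groups did not overlap, the median was 23.5% lower and the log2 fold change was -0.36 ± 0.043 (SE; limma adjusted p = 3.13e-07). Of all genes tested, 17.7% had a lower log2 fold change than GMNN.

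DBF4, the regulatory subunit of the CDC7 kinase (chr7:87876216-87909553, plus strand, 12 exons), had 22.1, 26.4 and 30.3 CPM in its lowest, median and highest R1881 libraries. In enzalutamide libraries 81 to 85 it had 14.2, 14.2, 10.7, 12.5 and 13.9 CPM, again without overlap. The log2 fold change was -0.99 ± 0.081 (SE; limma adjusted p = 9.01e-10). DBF4 shares 19.4% of its 50-base words with the pseudogene DBF4P1, which had its own row at 9.79 ± 1.297 CPM (SD, n = 10) with R1881 and 4.44 ± 0.425 CPM (SD, n = 5) with enzalutamide. Summed with that row, the log2 fold change was -1.03, so the split of reads between gene and pseudogene moved the value little. It also overlaps SLC25A40 on the other strand.

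**Figure D2:**
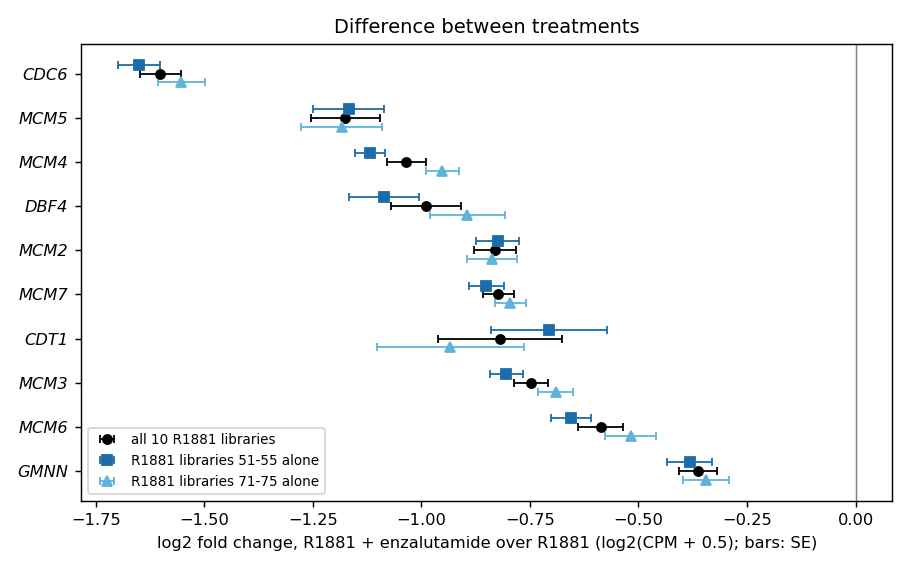
Log2 fold change (log2(CPM + 0.5) scale, x axis) of R1881 + enzalutamide over R1881 for each of the 10 genes, with all 10 R1881 libraries (black), libraries 51-55 alone (dark blue squares) or libraries 71-75 alone (light blue triangles), and bars of 1 SE. All points lie below 0, from CDC6 at -1.60 to GMNN at -0.36 with all libraries.

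The order of the decreases was then compared within libraries. For each of the 45 pairs of genes the log2 ratio of the pair was taken in each library and compared between treatments in all 3003 regroupings of the libraries, by a two-sided exact permutation test, whose smallest possible p is 0.000333, and p-values were adjusted over the 45 pairs. Scaling of a library nearly cancels in such a ratio. The ratio changed in 31 of the 45 pairs.

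CDC6 fell more than each of the 9 other genes. The closest was MCM5, with a log2 ratio of MCM5 to CDC6 that rose by 0.43 (95% interval 0.17 to 0.68, adjusted exact p = 0.00833), and the farthest was GMNN, where CDC6 minus GMNN was -1.24 (interval -1.31 to -1.17, adjusted exact p = 0.000749). With R1881 libraries 71-75 alone, the comparisons of CDC6 with MCM5 and with CDT1 no longer passed (adjusted exact p = 0.0862 and 0.0638). The difference of MCM5 minus CDC6 was then 0.37, and that of CDC6 minus CDT1 was -0.62, against -0.78 with all libraries. GMNN fell less than each of the 9 others. The nearest was MCM6, with a difference of -0.22 for MCM6 minus GMNN (interval -0.31 to -0.14, adjusted exact p = 0.000749). The difference of CDT1 and GMNN, -0.46 with an interval from -0.85 to -0.06, had an adjusted exact p of 0.0367 and did not pass with pseudocount 1 (adjusted exact p = 0.0532), with either R1881 series alone, or without single libraries 54, 75, 55, 74, 82, 81, 85 or 84 (adjusted exact p from 0.0515 to 0.117).

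Within the helicase, whose subunits form a ring with 1 copy of each, 11 of the 15 pairs changed. MCM6 fell less than all 5 other subunits, by between 0.16 against MCM3 and 0.59 against MCM5 on the log2 scale. The MCM3 comparison did not pass with libraries 51-55 alone (adjusted exact p = 0.0595), and that with MCM2, 0.24 (adjusted exact p = 0.033), did not pass with either series alone or without library 74, 82, 81, 85 or 84. MCM5 fell more than MCM2, MCM3, MCM6 and MCM7, by 0.34, 0.43, 0.59 and 0.35. MCM4 fell more than MCM2, MCM3, MCM6 and MCM7, by 0.20, 0.29, 0.45 and 0.21, and its comparison with MCM2 did not pass without library 83 (adjusted exact p = 0.074) or with libraries 71-75 alone (adjusted exact p = 0.208). MCM4 and MCM5 could not be separated, since the interval of MCM4 minus MCM5 ran from -0.09 to 0.37.

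The middle of the order was not resolved. MCM2 and MCM7 differed by -0.01 (interval -0.10 to 0.08), MCM2 and MCM3 by -0.08 (interval -0.24 to 0.07) and MCM3 and MCM7 by 0.08 (interval -0.01 to 0.17). For CDT1 6 of 9 comparisons did not pass, and their intervals were wide, such as -0.62 to 0.18 for MCM4 minus CDT1. That pair passed with libraries 51-55 alone (-0.41, adjusted exact p = 0.0493) and with the GC trend removed (-0.26, adjusted exact p = 0.0119). DBF4 fell more than MCM3, MCM6 and GMNN, by 0.24, 0.40 and 0.63, and less than CDC6, although the MCM3 comparison did not pass with libraries 71-75 alone (adjusted exact p = 0.0549). Its comparisons with MCM2, MCM4, MCM5, MCM7 and CDT1 did not pass. After removal of the GC trend from each library, DBF4 fell more than MCM2 and MCM7, by 0.22 in both, and 34 pairs passed in all.

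**Figure D3:**
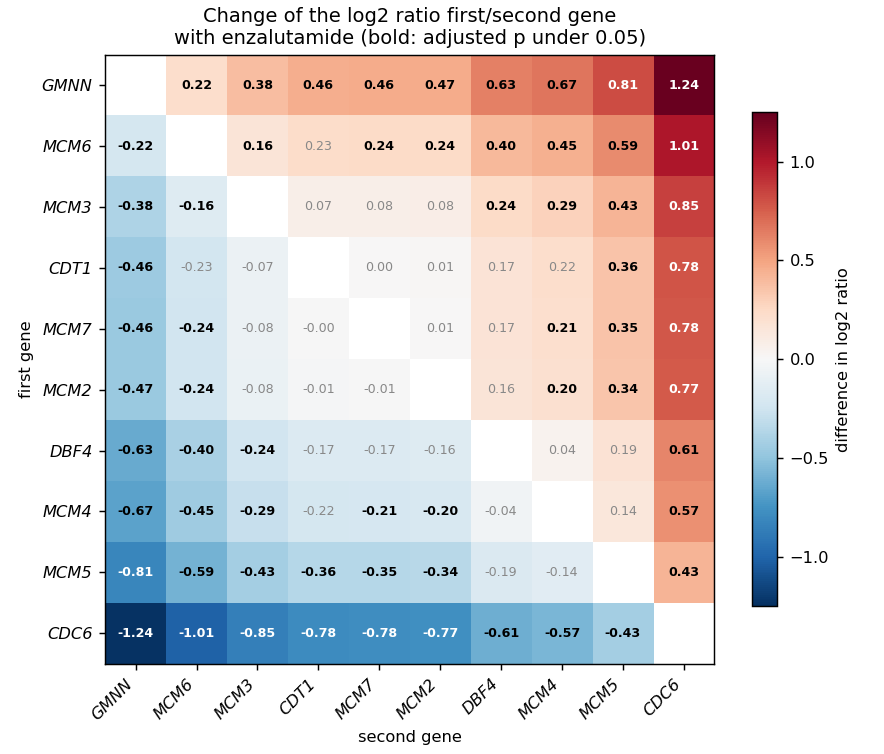
Change with enzalutamide of the log2 ratio of the gene in each row over the gene in each column, in log2 units, with genes ordered by fold change and colour from blue (first gene fell more) to red (first gene fell less). Bold numbers mark the 31 pairs with an adjusted exact p under 0.05, and the CDC6 row and the GMNN row are bold throughout.

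Levels of different genes were compared as CPM per kb of the main transcript. With R1881 the order was MCM7 at 67.8, MCM4 at 38.2, MCM3 at 37.0, GMNN at 33.5, MCM6 at 29.1, MCM2 at 24.1, CDC6 at 17.4, MCM5 at 12.2, DBF4 at 7.26 and CDT1 at 2.61 CPM per kb. MCM4 exceeded MCM3 in 8 of 10 libraries, MCM3 exceeded GMNN in 9 and MCM6 exceeded MCM2 in 9, so these neighbours were not separated in every library, whereas the other neighbours were. With enzalutamide the order was MCM7 at 38.2, GMNN at 26.0, MCM3 at 22.0, MCM6 at 19.3, MCM4 at 18.5, MCM2 at 13.5, CDC6 at 5.65, MCM5 at 5.33, DBF4 at 3.59 and CDT1 at 1.40 CPM per kb. GMNN thus moved from the fourth to the second place and MCM4 from the second to the fifth, although MCM6 exceeded MCM4, and CDC6 exceeded MCM5, in only 4 of 5 libraries. These places depend on the transcript model. When the length of all annotated exons was used instead (an alternative chosen after seeing the data), MCM4 took rank 6 in both groups, GMNN went from rank 5 to rank 4, MCM2 from rank 4 to rank 5, and MCM5 and DBF4 exchanged ranks 8 and 9.

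The same values gave the composition of the helicase transcripts. Of the summed CPM per kb of the 6 subunits, MCM4 made up 18.3% ± 0.811 with R1881 (SD, n = 10) and 15.9% ± 0.217 with enzalutamide (SD, n = 5; two-sided exact permutation p = 0.000333, adjusted over the 6 shares 0.002), without overlap. The share of MCM5 went from 5.87% ± 0.629 to 4.56% ± 0.529 (exact p = 0.002, adjusted 0.004), with a highest enzalutamide value of 5.33% and a lowest R1881 value of 5.27%. The MCM6 share rose from 14.0% ± 0.795 to 16.6% ± 1.15 (exact p = 0.00133, adjusted 0.004), and that of MCM3 from 17.8% ± 0.710 to 18.8% ± 0.458 (exact p = 0.0113, adjusted 0.017), both with overlapping groups. For MCM2 (11.6% and 11.5%) and MCM7 (32.5% and 32.7%) the shares did not pass the test. With the length of all annotated exons the share of MCM4 was lower by over 1.5 times, at 12.1% ± 0.507 with R1881 (SD, n = 10) and 10.2% ± 0.0864 with enzalutamide (SD, n = 5), and that of MCM6 was 20.3% ± 1.06 and 23.4% ± 1.51, with the same directions between treatments. Shares of a sum move against each other and are not independent of the pair comparisons. The highest subunit exceeded the lowest 5.58 ± 0.467 times per kb with R1881 and 7.23 ± 0.765 times with enzalutamide.

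**Figure D4:**
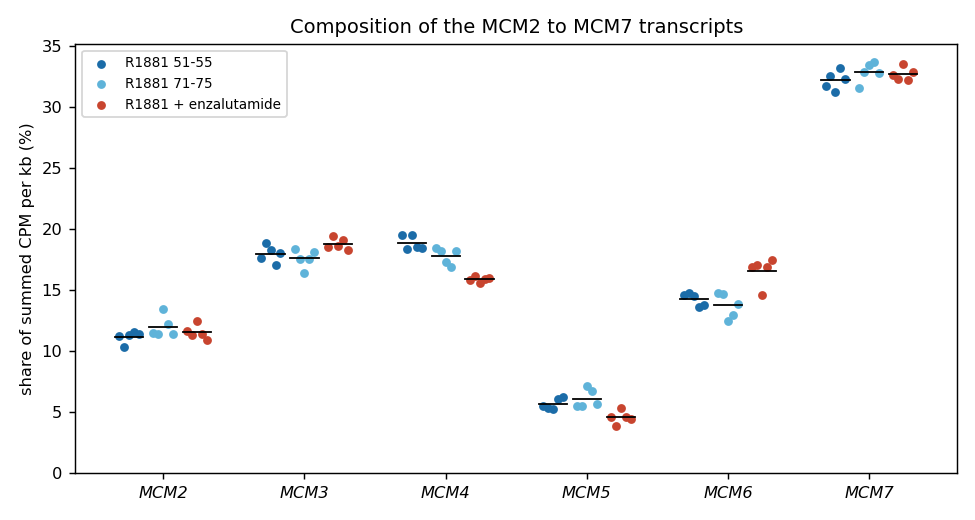
Share of each subunit in the summed CPM per kb of MCM2 to MCM7 (%, linear axis from 0) in each library, with dark blue for R1881 libraries 51-55, light blue for R1881 libraries 71-75, red for R1881 + enzalutamide, and lines for the means of 5 libraries. The red points of MCM4 (15.5 to 16.1%) lie below all blue points (16.9 to 19.5%), and library 83 is the red point of MCM6 below the other 4.

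The loader CDC6 and the inhibitor GMNN moved apart as well. The level of GMNN per kb was 1.93 ± 0.0923 times that of CDC6 with R1881 (SD, n = 10) and 4.59 ± 0.0823 times with enzalutamide (SD, n = 5). Relative to CDT1 it was 13.4 ± 2.95 times and 19.5 ± 4.83 times, values with a wide spread and with overlapping groups. As given above, the comparison of CDT1 and GMNN did not pass under several alternatives. With the length of all annotated exons these ratios were lower, at 1.15 ± 0.0548 and 2.73 ± 0.0488 for GMNN over CDC6 and 7.09 ± 1.56 and 10.3 ± 2.55 for GMNN over CDT1. CDC6 stood at 0.501 ± 0.0308 of the mean helicase subunit with R1881 and at 0.290 ± 0.0142 with enzalutamide (0.688 ± 0.0395 and 0.388 ± 0.0178 with all exons). These ratios describe transcript levels, and protein was not measured in these data.

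Differences between the R1881 series give a scale for the treatment difference. Between libraries 71-75 and 51-55, MCM4 was the only one of the 10 genes called, at 146 ± 6.42 and 164 ± 3.83 CPM (SD, n = 5 each), a log2 difference of -0.17 (limma adjusted p = 0.0289). This test called 3.29% of 16810 genes, 2.43% being lower in 71-75. MCM4 was also the only member whose series did not overlap, as was the case in 6.75% of all genes. The MCM4 call was lost without library 55, 74, 53, 72, 51 or 52. For the other 9 genes the log2 difference ran from -0.19 for DBF4 (limma adjusted p = 0.142) to 0.23 for CDT1 (limma adjusted p = 0.341), and 7 of the 10 values were negative. In size the series difference was between 1.42% (MCM5) and 27.8% (CDT1) of the treatment difference. The CDT1 value of 0.23 was 0.09 without library 73, 0.15 without library 52, 0.33 without library 71 and 0.02 with the GC trend removed, and that of DBF4 was -0.09 with the GC trend removed. Against each series alone, all 10 genes were lower with enzalutamide.

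The spread within a series followed GC content for several genes. MCM2, MCM5, MCM7 and CDT1, with GC contents of 55.8 to 64.3%, had their highest enzalutamide value in library 83 and their highest value of libraries 71-75 in library 73. MCM4, MCM6, CDC6, GMNN and DBF4, with GC contents of 37.7 to 47.7%, had their lowest enzalutamide value in library 83. In library 73 the genes with their lowest value of libraries 71-75 were MCM3, MCM6, CDC6 and GMNN (43.2 to 51.7%). MCM4 and DBF4, the latter with the lowest GC content, were not among them. Without libraries 73 and 83 all 10 genes remained lower with enzalutamide and 31 pairs passed, the same number as with them. Across the 15 libraries, deviations from the mean of the library's own series correlated between pairs of genes with r from -0.78 (MCM5 and DBF4) to 0.87 (MCM2 and CDT1), with a median of -0.04. After removal of the GC trend those values were -0.52 and 0.40, and the median over the 45 pairs was 0.20. Libraries share depth and GC trend, so these correlations are given as a description only.

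Other genes of the licensing pathway were listed by role, and 45 were tested. Of these, 30 were lower with enzalutamide, 4 were higher and 11 did not pass, with a median log2 fold change of -0.29, against 32.7% lower and 29.8% higher and a median of -0.01 over all genes. Within the origin recognition complex, to which CDC6 is related, 3 of 7 listed genes were lower, 1 was higher and 3 did not pass. The lower ones were ORC5 (-1.29, from 97.6 to 39.5 CPM, limma adjusted p = 1.07e-15), ORC1 (-1.08, from 20.5 to 9.45 CPM) and ORC6 (-1.03, from 21.0 to 10.0 CPM). ORC4 rose by 0.16 (limma adjusted p = 0.00243), whereas ORC2 stood at 0.02, ORC3 at -0.10 and LRWD1, an ORC-binding protein, at -0.04. The subunits of this complex thus did not show a common direction, unlike those of the helicase.

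Of the 7 relatives and binding partners of the MCM proteins, 5 were lower. MCM10, which acts in activating the loaded helicase, fell by 1.17 on the log2 scale (29.4 to 12.8 CPM) and MCM8 by 1.00 (51.7 to 25.6 CPM), both within the range of the replicative subunits. MCMDC2 rose by 0.55 (7.26 to 10.8 CPM, limma adjusted p = 1.18e-06) and MCM9, the partner of MCM8, stood at -0.10 and did not pass (19.4 and 18.1 CPM, limma adjusted p = 0.145). CDC7, the catalytic partner of DBF4, fell by 0.63 (33.7 to 21.6 CPM) and DBF4B by 0.37 (6.24 to 4.75 CPM). Among 6 origin firing factors 5 were lower, led by TICRR (-1.29, 15.8 to 6.19 CPM) and RECQL4 (-0.67, 11.2 to 6.93 CPM), and MTBP, the partner of TICRR, stood at -0.14 and did not pass.

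Of 13 genes for the turnover of licensing factors 10 were lower, 1 was higher and 2 did not pass. DTL, the substrate receptor through which the CUL4 ligase marks CDT1 for degradation, fell by 1.26 (37.3 to 15.2 CPM) and FBXO5, an inhibitor of the anaphase-promoting complex, fell by 0.86 (22.9 to 12.4 CPM). CUL4B rose by 0.23 (138 to 162 CPM), and CUL4A stood at 0.01 and did not pass. Of 9 chromatin factors of licensing 4 were lower, 1 was higher and 4 did not pass. KMT5A, a histone H4 methyltransferase listed under its older name SETD8, fell by 0.84 (120 to 66.5 CPM), RIF1 fell by 0.29, and JADE3 rose by 0.29. GMNC, a relative of geminin, was listed at 1.24 and 0.76 CPM (-0.45, limma adjusted p = 0.00445).

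**Figure D5:**
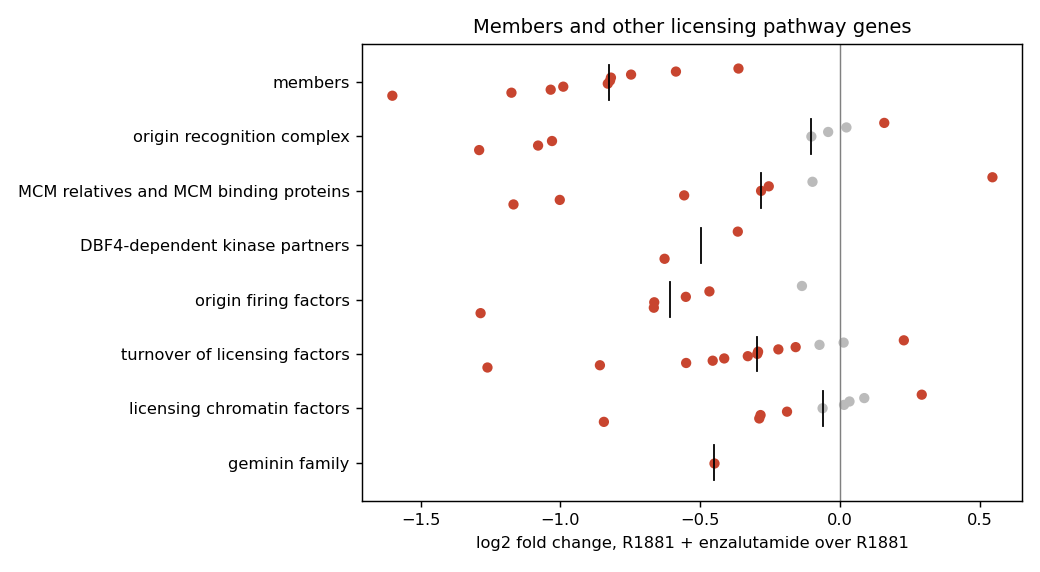
Log2 fold change of R1881 + enzalutamide over R1881 (x axis) for the 10 licensing genes and 45 other pathway genes by role, where points are genes, red points passed the limma test, grey points did not, and vertical lines are medians of a row. The 10 members lie between -1.60 and -0.36, and the origin recognition complex reaches from -1.29 to 0.16.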

How the data were processed

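The authors prepared stranded mRNA libraries from polyadenylated RNA, made reads with bcl2fastq 2.17 and, per the labels' processing notes, used STAR, Subread and featureCounts with GRCh38. The deposited signal per gene and library is what their methods call CPM. The columns summed to between 1053406 and 1078567 with R1881 and to between 985580 and 1008992 with enzalutamide, so library sizes had been rescaled. These sums did not overlap between treatments. With plain library totals the members fell less, as with GMNN (-0.27 in place of -0.36) and CDC6 (-1.51 in place of -1.60). The scaling, the annotation, the strand setting and the filter that left 17272 genes are stated in none of the sources used here. All 15 libraries had a column, and 0 columns were without a sample. Whole reads were recovered from the values (100% within 0.01 reads), and no library repeated another, since the lowest chi-square per degree of freedom among the 55 pairs within treatments was 1.64.

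Groups were taken from the labels. The main test was limma 3.58.1 (trend, log2(CPM + 0.5), mean of at least 0.5 CPM, Benjamini-Hochberg adjustment over all genes, threshold 0.05) in R 4.3.3, with edgeR 4.0.16 (quasi-likelihood) and DESeq2 1.42.0 as alternatives, both on recovered reads. Pairs of genes were compared with two-sided exact permutation tests (SciPy 1.17.1), and intervals at 95% are those shifts the test did not reject. The number of libraries limits the precision. Positions, lengths and GC content are from GENCODE v44, with a GC value for 85.7% of genes by symbol. Both tests were run on simulated data. For limma those data held no GC trend and no difference between series, so that run cannot show how the test behaves with them.

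The members, the pathway lists, the marker lists and the tests were chosen with earlier results of these data known. Named genes are all members, KLK3, up to 2 genes with the lowest and 2 with the highest log2 fold change of each pathway list, and, for each member, the 3 genes whose deviations follow it most closely, which the closing section gives. ORC1 to ORC6, LRWD1, MCM9, MCM10, MTBP, CUL4A and marker genes beyond that rule were named after their values were seen. Alternatives covered the pseudocount (0.1 and 1), the filter, the scaling, the test, a replicate block, each R1881 series alone and each library left out. Removal of the GC trend (spline, 5 degrees of freedom), leaving out libraries 73 and 83, and lengths of all annotated exons for the levels per kb were added after the data were seen.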

Additional observations from a re-analysis of the deposited data

Results flagged for a closer look

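Among 20 groups of values (10 genes in 2 treatments), 1 held a library far from the others, as chance alone gives about 1 in 20. It was CDT1 in R1881 library 73, with 10.98 CPM against 7.67 CPM in the nearest library, a gap of 0.544 of the whole range where 0.466 is the critical value for 10 libraries. That library also had the strongest positive relation of expression to GC content among the R1881 libraries (0.79). Its CDT1 deviation from the mean of its own series was 0.54 on the log2 scale, and 0.17 with the GC trend removed. Whether this relation caused the CDT1 value was not tested. Without libraries 73 and 83 CDT1 was still called lower with enzalutamide.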

How the results depend on the processing

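All 10 members were called lower with enzalutamide under each of the 29 alternatives, with log2 fold changes from -1.65 to -1.51 for CDC6, -0.39 to -0.27 for GMNN and -0.93 to -0.71 for CDT1. Genes called between treatments numbered 8297 to 10917 (10071 to 10877 when single libraries were left out), and pairs that passed numbered 24 (libraries 71-75 alone) to 34 (GC trend removed), or 29 to 31 with single libraries left out. The sign changed only in pairs that did not pass. The R1881 series comparison was less stable. It called 553 genes, but 1016 with DESeq2, 900 with the GC trend removed and 56 to 969 with single libraries left out. It called 1 member, but 3 with the GC trend removed and 0 to 2 with single libraries left out. In that comparison the log2 difference of MCM2 (0.01) was -0.086 with the GC trend removed and ranged from -0.036 to 0.04 with single libraries left out, below 0 without library 73 or 52. That of MCM5 (0.02) was -0.065 with the GC trend removed and ranged from -0.048 to 0.062, below 0 without library 74, 73, 53 or 52, and that of GMNN (-0.04) was 0.026 with the GC trend removed. The cause was not tested. Replicates 1 to 5 of both treatments share numbers, but deviations of same-numbered libraries correlated between -0.11 and 0.13, so the numbers were not taken as a pairing. With the replicate block 10117 genes were called, against 10333 in the same libraries without it, and all 10 members remained lower. Pairs of members with a replicate block were not run, since an exact sign-flip test of 5 pairs cannot go below 0.0625. CDT1 had the fewest reads of the members, 60 to 244 per library.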

Other observations

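By deviations from the mean of the library's own series, over 12163 other genes and 15 libraries, the genes that followed CDC6 most closely were RPP30 (r = 0.92), AC026271.5 (0.91) and STEAP1B (0.88), and those nearest to MCM4 were RTN3P1 (0.89), TRIM25 (0.89) and RNASEH1 (0.86). After removal of the GC trend RPP30 and STEAP1B had r of 0.87 and 0.79, and the genes nearest to MCM4 had 0.85, 0.75 and 0.89. AC026271.5 had no GC value. GMNN was followed by PAIP2 (0.94), NUF2 (0.94) and CCDC25 (0.93), with r of 0.83, 0.81 and 0.82 after removal of the GC trend. MCM3 had MRRF (0.87, then 0.79 after that removal), TMEM45B (0.86, then 0.66) and MTMR4 (0.86, then 0.71) nearest to it. MCM5 had ATP13A1 (0.97, then 0.92), SMPD4 (0.97, then 0.90) and THOP1 (0.96, then 0.60). For MCM7 they were TUBBP1 (0.94, then 0.86), NR2C2AP (0.91, then 0.74) and RP11-66N24.3 (0.90, without a GC value). For CDT1 they were TP53I13 (0.98, then 0.88), ALG3 (0.97, then 0.77) and FBXO44 (0.97, then 0.83). For MCM6 they were NEK7 (0.96, then 0.40), ZNF322 (0.95, then 0.81) and DHX36 (0.94, then 0.78). For MCM2 they were MBOAT7 (0.97, then 0.30 after that removal), IGHMBP2 (0.96, then 0.67) and PNPLA2 (0.95, then 0.41), and for DBF4 LIPA (0.97, then 0.83), PPAT (0.96, then -0.06) and NPAT (0.96, then 0.78). No member of the 10 was among the 3 nearest genes of another. These values are descriptions of shared deviations in libraries that also share depth and GC trend.

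Among the other pathway genes with a promoter window, the E2F letters were in 6 of 26 genes called lower and in 3 of 13 genes not called lower, the same share of 23.1%. In genes at least 2-fold lower with enzalutamide they were in 8.24% of 437.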
